A study of Homo sapiens with 5 samples.

Results

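The SLC25 carriers are the proteins of the inner mitochondrial membrane, with a few members elsewhere, that move metabolites, nucleotides and cofactors between the matrix and the cytosol. Members were the gene symbols made of SLC25A and a number, antisense and pseudogene rows left out, whose FPKM, averaged over the 5 libraries, was 0.5 or more. FPKM divides the fragments of a gene by transcript length and by the library's mapped fragments, so levels can be set side by side between genes. The table held 27933 symbols, of which 48 had such a name and 40 were members. The members nearest to the limit from above were SLC25A41 (mean 0.627 FPKM), SLC25A45 (0.817 FPKM) and SLC25A6 (0.833 FPKM), and those nearest from below were SLC25A18 (0.455 FPKM), SLC25A34 (0.402 FPKM) and SLC25A53 (0.368 FPKM).

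RNA came from HaCaT, an established human keratinocyte line that keeps dividing and can still differentiate, grown in DMEM with 10% fetal bovine serum. There were 2 libraries labelled control (their columns are headed NC) and 3 labelled AHNAK knockdown (headed si), called control 1 and 2 and knockdown 1, 2 and 3 here. AHNAK encodes a very large scaffold protein, and the series title places it under oncostatin M receptor signalling. The series' design text says knockout where the sample labels say knockdown. The labels give neither the sequence of any interfering RNA, nor the time after its delivery, nor whether libraries came from separate cultures, so p-values measure only how these samples vary, and that variation may be technical.

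A carrier of this family is built from 3 similar repeats, each holding a short signature of a proline, an acidic and a basic residue, and it works by opening in turn to either side of the membrane. ADP/ATP translocases and the phosphate carrier feed ATP synthase and export its product, while the citrate, oxoglutarate and aspartate/glutamate carriers move carbon and reducing equivalents for lipid synthesis and the malate-aspartate shuttle. Other members carry amino acids, acylcarnitines, coenzyme A, folate, NAD, iron or glutathione. In the epidermis, keratinocytes use mitochondria while they proliferate and remove them as they cornify.

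Library-wide values that touch the carriers were as follows. AHNAK itself had 204.8 and 242.0 FPKM (control 1, 2) and 113.9, 69.6 and 115.3 FPKM (knockdown 1, 2, 3), so no knockdown library reached a control, and its log2 difference of -1.19 (SE 0.25) was not called by limma (adjusted p = 0.365). The 12 keratinocyte markers looked at were all at a mean of 1 FPKM or more, with KRT5 at 1539.3 FPKM or above in every library, and of 10 markers of fibroblasts, melanocytes, leukocytes and endothelium 3 reached that mean, TYR was at 0 throughout, and their summed level was 5.92 to 5.97 FPKM in the controls and 5.16 to 6.61 FPKM in knockdown. The summed keratinocyte markers were 5803 to 7197 FPKM in the controls and 4175 to 5629 FPKM in knockdown, and the largest terms of this sum were KRT5, KRT14 and SFN. Groups were apart in 8 of these 12 (32.3% of all genes), 6 lower in knockdown (15.7% of all genes) and 2 higher (16.5% of all genes). The 2 higher were KRT10 and IVL, the latter at 31.5 and 24.8 against 43.4, 69.4 and 43.6 FPKM. The 3 tested markers of other cell types were also apart, COL3A1 higher in knockdown (log2 difference 0.74) and COL1A1 (-0.40) and PMEL (-0.44) lower, so that their sum hides opposite directions. The part of these markers in the carrier values was not tested. The low values of control 1, knockdown 1 and knockdown 3 shared common steps (the most frequent ratio held for 20.1% to 25.1% of low genes), as did those of control 2 and knockdown 2 (17.0%), against at most 3.96% in any other pair. These are called set A and set B. No label describes them, each holds both groups, and for some genes differences within each set are given beside the pooled ones. AHNAK differed by -0.83 within set A and by -1.79 within set B.

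The sequences below are shown because the carriers differ in base composition, against which their values are set later. The signature is written in AT-rich codons in some carriers and in GC-rich codons in others, and the residues encoded also differ in part. Each stretch has the 6 codons from proline to the basic residue of the first signature in capitals, with 21 coding bases to either side, read 5′ to 3′ from GENCODE 29 transcripts. Coordinates are GRCh38, and SLC25A40, SLC25A3, SLC25A5 and SLC25A10 are joined across an intron between the ends given. SLC25A40 and SLC25A36 are among the AT-rich members, SLC25A22 and SLC25A10 among the GC-rich ones, and SLC25A3 and SLC25A5 are the 2 members of highest level. Their positions are chr7:87856308-87858646, minus strand (SLC25A40), chr3:140956540-140956599, plus strand (SLC25A36), chr12:98595507-98597864, plus strand (SLC25A3), chrX:119468576-119469669, plus strand (SLC25A5), chr11:794802-794861, minus strand (SLC25A22) and chr17:81712481-81714973, plus strand (SLC25A10).
SLC25A40: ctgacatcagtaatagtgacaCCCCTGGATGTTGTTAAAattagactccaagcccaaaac
SLC25A36: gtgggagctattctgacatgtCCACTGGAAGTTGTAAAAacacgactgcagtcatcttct
SLC25A3: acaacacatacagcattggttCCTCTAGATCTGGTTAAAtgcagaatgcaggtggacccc
SLC25A5: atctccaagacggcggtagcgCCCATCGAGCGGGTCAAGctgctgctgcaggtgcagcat
SLC25A22: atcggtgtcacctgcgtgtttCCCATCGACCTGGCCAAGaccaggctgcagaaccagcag
SLC25A10: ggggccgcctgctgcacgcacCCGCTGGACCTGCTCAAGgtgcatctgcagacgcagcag
GC content of the 60 bases was 41.7% in SLC25A40, 45% in SLC25A36, 46.7% in SLC25A3, 60.0% in SLC25A22, 63.3% in SLC25A5 and 70.0% in SLC25A10. At the third codon position over the whole coding sequence it was 31.1% in SLC25A40, 32.2% in SLC25A36 and 49.2% in SLC25A3. It was 59.7% in SLC25A5, 85.1% in SLC25A22 and 70.0% in SLC25A10. Of the 40 members 38 had at least 1 match to the signature in the coding transcript read here, and 22 had 3 matches.

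The family was dominated by the carriers of oxidative phosphorylation. SLC25A5 (ANT2, the ADP/ATP translocase of dividing cells) had 464.4 and 518.0 FPKM (control 1, 2) and 513.7, 474.6 and 582.3 FPKM (knockdown 1, 2, 3). SLC25A3, the phosphate carrier, followed with 234.1 and 272.9 against 231.3, 203.9 and 295.7 FPKM. In both genes knockdown 3 was the highest library and the groups overlapped. SLC25A5 made up 35.1% to 40.3% of the summed FPKM of the members in a library, SLC25A3 15.6% to 20.5%, and the 5 members of highest level 70.1% to 74.5%. These 5 were SLC25A5, SLC25A3, SLC25A39 (a glutathione carrier), SLC25A1 (the citrate carrier) and SLC25A11 (the oxoglutarate/malate carrier) in every library. The members together held 0.338% (knockdown 2) to 0.357% (knockdown 1) of the summed FPKM of the table.

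Below SLC25A5 and SLC25A3, 6 members averaged 30 to 100 FPKM, 10 averaged 10 to 30, 8 averaged 5 to 10, 10 averaged 1 to 5 and 4 lay between 0.5 and 1. Among the translocases SLC25A4 (ANT1, the form of heart and muscle) stood at 9.83 to 11.5 FPKM, and SLC25A5 exceeded it by 41.3 to 54.3 times within a library. SLC25A6 (ANT3) stood at 0.690 to 1.10 FPKM. That gene lies in the pseudoautosomal region shared by X and Y and has 6 named pseudogenes in GENCODE 29, so its reads have several possible places and its level is uncertain. SLC25A5 has 9 named pseudogenes, SLC25A1 and SLC25A15 5 each, SLC25A51 3 and SLC25A3 2, and reads may be divided there too. The 8 family symbols under the limit included SLC25A31 (the germ-cell translocase ANT4) and SLC25A2 (an ornithine carrier), each at 0 in 4 of 5 libraries.

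**Figure D1:**
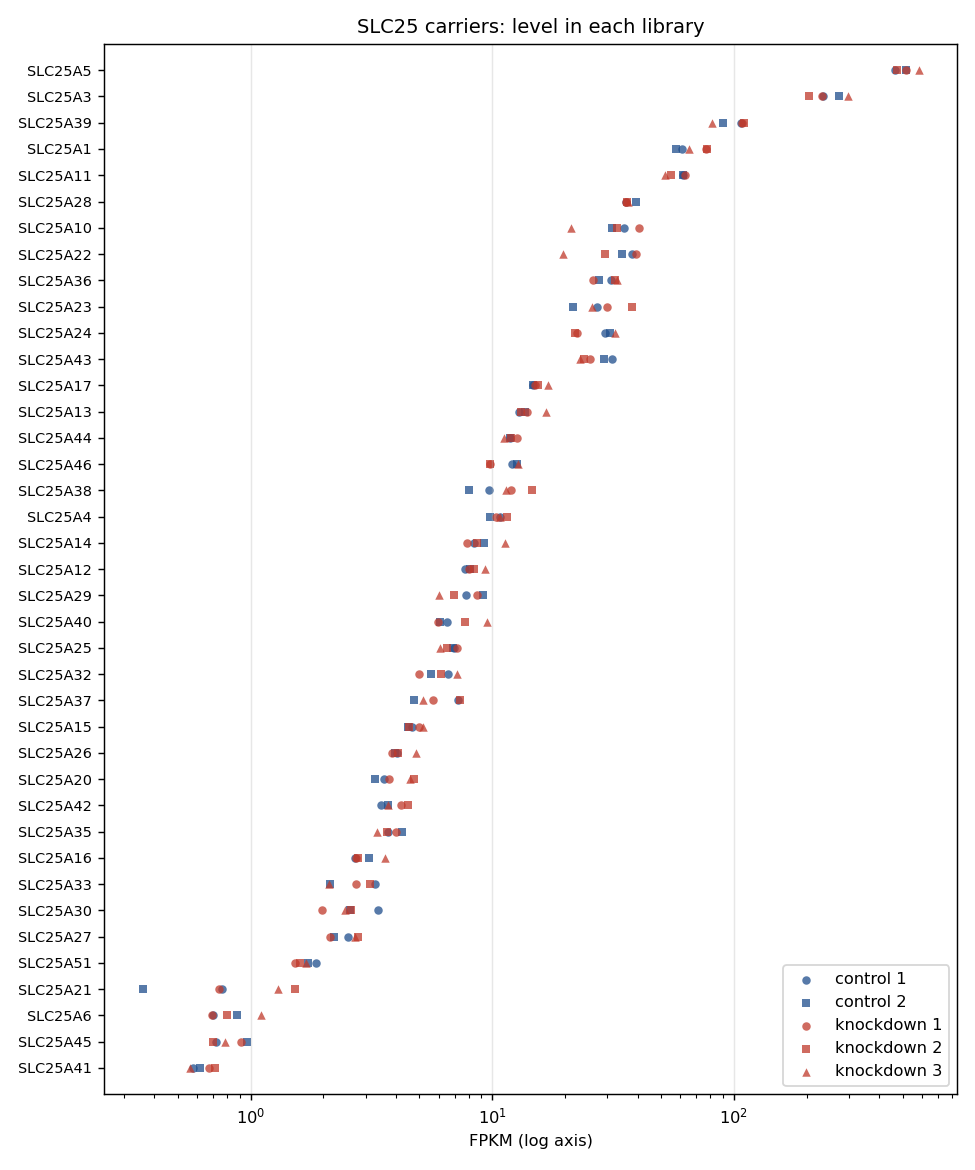
FPKM of the members in each library (1 of the 40 is not drawn), on a log axis, ordered by the mean over the 5 libraries; blue marks are controls, red marks knockdown, with circles and triangles for set A and squares for set B. SLC25A5 and SLC25A3 lie apart at 203.9 FPKM or above, and SLC25A6, SLC25A41, SLC25A45 and SLC25A21 lie at the bottom.

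No carrier passed the threshold between knockdown and control. Differences were tested with limma on log2(FPKM + 0.5) over the 13380 genes averaging 0.5 FPKM or more, knockdown minus control, adjusted over all of them with the Benjamini-Hochberg method. Of the 40 members 0 were called, as were 0% of all genes, and at an unadjusted p under 0.05 there were 3 members, which is 7.5% against 11.7% of all genes. SLC25A38 and SLC25A21 were higher (6.21% of all genes) and SLC25A43 lower (5.52% of all genes). Without knockdown 2 the count of members was 0, beside 793 of the 13380 genes. It was 6 without knockdown 1, beside 2282 genes, and 6 without knockdown 3, beside 1004 genes higher and 837 lower. The fit reported had 1570 genes at such a p, so the count over all genes moved as well. In 23 members the estimate was above 0 (57.5%, against 51.7% of all genes) and in 17 below, and after scaling to an equal FPKM sum in 19 and 21. The median difference was 0.04 on the log2 scale, beside 0.01 over all genes, and the range was -0.34 (SLC25A22) to 0.67 (SLC25A21). Groups did not overlap in 6 members, which is 15% against 32.3% of all genes. Every knockdown library was higher in 4 (16.5% of all genes) and lower in 2 (15.7% of all genes). An absolute difference of 0.5 or more was found in 1 member, SLC25A21, against 9.44% of all genes. In simulated data with 2 control and 3 knockdown libraries the test called 77.8% of log2 changes of 1 and 0.1% of log2 changes of 0.5. The simulated noise was independent between genes and lacked the shared relation to base composition given below. These shares may therefore not hold for the real libraries, in which AHNAK, at -1.19, was not called. Every member but SLC25A21 differed by less than 0.5. Differences are also given for SLC25A22 and SLC25A37, picked out after their values had been seen.

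**Figure D2:**
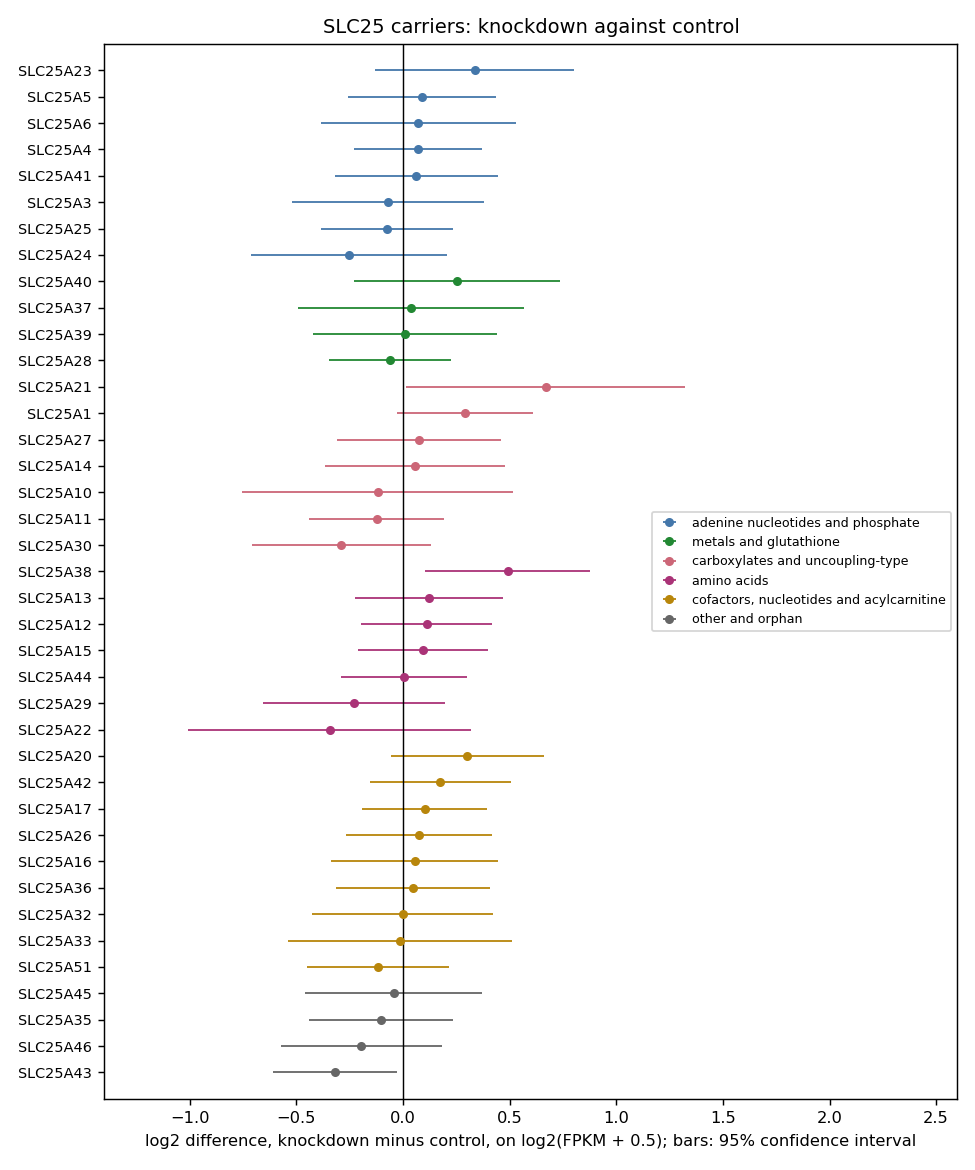
Log2 difference, knockdown minus control, of the members (1 of the 40 is not drawn) on the log2(FPKM + 0.5) scale, with 95% confidence intervals from limma, unadjusted, and coloured by the substrate group. The intervals of SLC25A38, SLC25A21 and SLC25A43 lie to one side of 0.

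Amino acid carriers held the member of smallest p. SLC25A38, which brings glycine into mitochondria for the start of heme synthesis, had 9.70 and 8.01 FPKM (control 1, 2) and 11.96, 14.6 and 11.4 FPKM (knockdown 1, 2, 3). Every knockdown library was above both controls, with the largest gap between control 2 and knockdown 2. The control mean was 8.85 ± 1.19 FPKM (SD, n = 2), the knockdown mean 12.7 ± 1.72 FPKM (SD, n = 3) and the log2 difference 0.49 (SE 0.16; set A 0.26, set B 0.83; limma adjusted p = 0.395). Of 28 listed enzymes that make or use carried substrates, FECH closes heme synthesis by inserting iron. It was above both controls in each knockdown library, as were 16.5% of all genes. Its levels were 3.82 and 4.05 against 4.77, 5.10 and 5.63 FPKM (0.35, SE 0.13, limma adjusted p = 0.407). ALAS1, another enzyme of heme synthesis in that list, overlapped between groups, at 27.7 and 22.9 against 25.8, 29.1 and 21.9 FPKM.

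The aspartate/glutamate carriers of the malate-aspartate shuttle differed little. SLC25A12 (aralar) stood at 7.69 and 8.13 against 8.03, 8.42 and 9.34 FPKM, and SLC25A13 (citrin, the form of liver and many dividing cells) at 12.9 and 13.7 against 14.0, 13.1 and 16.7 FPKM. Knockdown 3 was the highest library for both and the groups overlapped. The ratio of SLC25A12 to SLC25A13 stayed between 0.561 and 0.642 over the 5 libraries. Their log2 differences were 0.11 (95% confidence interval -0.20 to 0.42) and 0.12 (-0.23 to 0.47) in limma. Of the 7 amino acid carriers 5 had an estimate above 0 and 2 below. The 2 below were SLC25A22, a glutamate carrier, at 37.7 and 34.3 against 39.2, 29.3 and 19.6 FPKM, and SLC25A29, a carrier of basic amino acids, at 7.82 and 9.14 against 8.65, 6.94 and 6.03 FPKM (log2 difference -0.23, SE 0.18, limma adjusted p = 0.627). For SLC25A29 leaving out control 2, knockdown 1 or knockdown 3 gave -0.12, -0.36 and -0.12. In both, knockdown 1 lay within or above the controls and knockdown 3 was the lowest. SLC25A15, the ornithine carrier of the urea cycle, and SLC25A44, a carrier of branched-chain amino acids, stayed within 4.46 to 5.19 and 11.2 to 12.7 FPKM.

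Among the carboxylate carriers SLC25A1 was higher in all 3 knockdown libraries. It exports citrate, from which the cytosol makes acetyl-CoA for lipids, and it had 61.1 and 57.8 FPKM (control 1, 2) and 76.5, 77.4 and 65.3 FPKM (knockdown 1, 2, 3). The control mean was 59.5 ± 2.31 FPKM (SD, n = 2), the knockdown mean 73.1 ± 6.69 FPKM (SD, n = 3) and the log2 difference 0.29 (SE 0.13; set A 0.21, set B 0.42; limma adjusted p = 0.459). SLC25A11, which exchanges oxoglutarate for malate, stood at 61.5 and 61.8 against 62.7, 55.2 and 52.1 FPKM, with knockdown 1 above the controls and the other 2 below (log2 difference -0.12, 95% confidence interval -0.44 to 0.19). SLC25A11 was thus the higher of this pair in both controls and SLC25A1 in each knockdown library, an order picked out after the values had been seen.

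SLC25A21, the carrier of oxoadipate in lysine breakdown, had the largest difference of the family at a very low level. It had 0.759 and 0.360 FPKM (control 1, 2) and 0.743, 1.52 and 1.30 FPKM (knockdown 1, 2, 3). Knockdown 1 lay below control 1, so the groups overlapped, and the log2 difference was 0.67 (SE 0.27; set A 0.25, set B 1.23; limma adjusted p = 0.420). Without control 2 it was 0.39 and without control 1 it was 0.94. Its exons share 15.8% of their bases with the antisense gene SLC25A21-AS1 and 13.0% with the protein-coding gene PAX9 on the other strand. Whether counting used strand is not given in the sources used here. SLC25A21-AS1 stood at 0.123 and 0.165 against 0.185, 0.263 and 0.410 FPKM, and its part in the SLC25A21 values was not tested. SLC25A10, which exchanges dicarboxylates for phosphate, stood at 35.2 and 31.2 against 40.5, 32.8 and 21.3 FPKM, so the knockdown libraries were on both sides of the controls. SLC25A10 shares 46.6% of its exon bases with the protein-coding gene AC139530.2 on the same strand, so its reads may be divided. In the uncoupling-type carrier SLC25A30 control 1 was the highest library, at 3.38 FPKM, and knockdown 1 the lowest, at 1.97 FPKM, while control 2 (2.58 FPKM) and knockdown 2 (2.59 FPKM) were alike (log2 difference -0.29, SE 0.17, limma adjusted p = 0.547). This difference was -0.12 without control 1, -0.46 without control 2 and -0.19 without knockdown 1. Over the 7 carboxylate and uncoupling-type members 4 estimates were above 0 and 3 below.

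**Figure D3:**
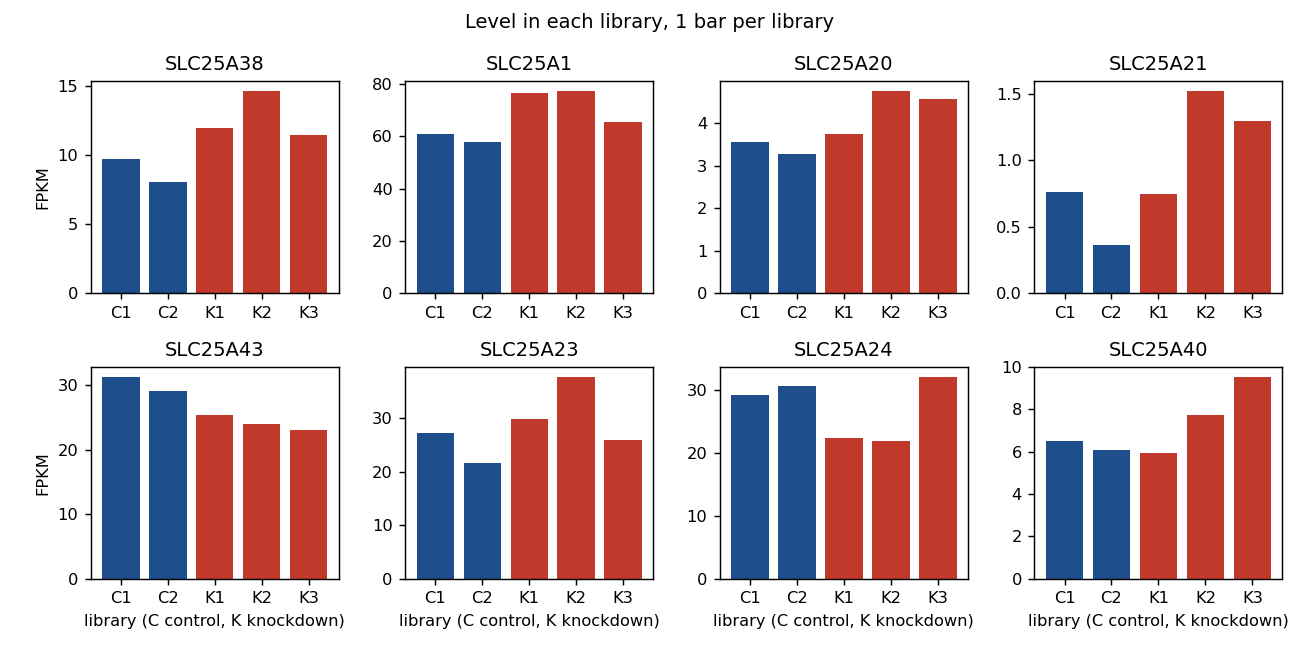
FPKM of 8 members in control 1 and 2 (C1, C2, blue) and knockdown 1, 2 and 3 (K1, K2, K3, red), 1 bar per library. SLC25A38, SLC25A1 and SLC25A20 have every red bar above both blue ones and SLC25A43 every red bar below, while SLC25A40 has its highest bar in K3.

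The nucleotide and phosphate carriers showed no common direction. Of 8 members 5 had an estimate above 0 and 3 below, with a median of 0.07 on the log2 scale, and in 0 of the 8 were the groups apart. SLC25A5 differed by 0.09 (95% confidence interval -0.26 to 0.44), SLC25A3 by -0.07 (-0.52 to 0.38), SLC25A4 by 0.07 (-0.23 to 0.37) and SLC25A6 by 0.07 (-0.38 to 0.53). For SLC25A3, SLC25A5 and SLC25A6 the sign of this small estimate turned in 2, 4 and 4 of the alternative fits. For SLC25A6 these include the replicate block and the fit without knockdown 3, which give the same estimate. The calcium-regulated ATP-Mg/phosphate carriers SLC25A23 and SLC25A24, which adjust the adenine nucleotide pool of the matrix, had estimates on opposite sides of 0. SLC25A23 stood at 27.2 and 21.7 against 29.8, 37.8 and 26.0 FPKM (log2 difference 0.34, SE 0.19, set A 0.03, set B 0.78), and SLC25A24 at 29.3 and 30.7 against 22.4, 21.97 and 32.2 FPKM (-0.25, SE 0.19, set A -0.13, set B -0.47). Leaving out 1 library moved SLC25A23 to 0.18 (without control 2) or 0.19 (without knockdown 2), and SLC25A24 to -0.16 (without knockdown 2) or -0.43 (without knockdown 3). In both genes knockdown 3 lay with the controls and the other 2 knockdown libraries lay apart from them. The ratio of SLC25A23 to SLC25A24 was 0.928 and 0.708 in the controls and 1.33, 1.72 and 0.809 in knockdown 1, 2 and 3. Neither gene passed (limma adjusted p = 0.529 and 0.623).

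Among the 10 carriers of cofactors, nucleotides and acylcarnitine 6 estimates were above 0 and 4 below. SLC25A20, which brings acylcarnitines into the matrix for fatty acid oxidation, had 3.57 and 3.29 FPKM (control 1, 2) and 3.75, 4.76 and 4.58 FPKM (knockdown 1, 2, 3). All 3 knockdown libraries were above both controls, knockdown 1 by the least, and the log2 difference was 0.30 (SE 0.15; set A 0.19, set B 0.47; limma adjusted p = 0.478). SLC25A17, a carrier of peroxisomes, was likewise above the controls in each knockdown library, at 14.7 in both controls against 15.0, 15.5 and 17.0 FPKM. SLC25A51, the NAD carrier, was below them in each, at 1.86 and 1.72 against 1.53, 1.61 and 1.70 FPKM (log2 difference -0.12, 95% confidence interval -0.45 to 0.21). Knockdown 3 and control 2 differed there by less than the controls differed from each other. SLC25A42, a coenzyme A carrier, had a log2 difference of 0.18 (SE 0.14, limma adjusted p = 0.633) with overlapping groups. The pyrimidine nucleotide carriers SLC25A33 and SLC25A36 and the folate carrier SLC25A32 had knockdown libraries on both sides of the controls or within them. SLC25A32 shares 69.7% of its exon bases with the protein-coding gene AC012213.5 on the same strand, so its level is uncertain.

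Metal and glutathione carriers gave 3 estimates above 0 and 1 below. SLC25A39, the most abundant of them, stood at 107.5 and 90.2 against 108.6, 109.8 and 81.4 FPKM (log2 difference 0.01, 95% confidence interval -0.42 to 0.44), and its close relative SLC25A40 at 6.51 and 6.09 against 5.94, 7.72 and 9.54 FPKM (0.25, SE 0.20). For SLC25A40 it was 0.098 without knockdown 3 and 0.42 without knockdown 1. Knockdown 3 was the lowest library for SLC25A39 and the highest for SLC25A40, so that the ratio of the pair was 8.54 there and 14.2 to 18.3 in the other 4 libraries. For SLC25A39 the sign of the difference turned in 5 alternative fits. The mitoferrins, which import iron, were SLC25A28, steady at 35.8 to 39.5 FPKM, and SLC25A37, at 7.19 and 4.72 against 5.69, 7.36 and 5.17 FPKM. For SLC25A37 set A gave -0.38 and set B 0.59.

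The 4 members without a substrate given here, or with a role in the outer membrane, all had estimates below 0. SLC25A43, whose substrate is not given here, had 31.3 and 29.1 FPKM (control 1, 2) and 25.4, 24.1 and 23.0 FPKM (knockdown 1, 2, 3). Every knockdown library was below both controls and both groups were tight, with means of 30.2 ± 1.56 FPKM (SD, n = 2) and 24.2 ± 1.18 FPKM (SD, n = 3). The log2 difference was -0.32 (SE 0.12; set A -0.37, set B -0.27; limma adjusted p = 0.407), of like size in both sets. SLC25A46, an outer membrane protein that shapes mitochondria, stood at 12.1 and 12.6 against 9.83, 9.75 and 12.8 FPKM (-0.20, SE 0.16), with knockdown 3 above the controls, and without that library its difference was -0.32. SLC25A35 and SLC25A45 differed by less than the spread between libraries, and SLC25A35 shares 33.2% of its exon bases with RANGRF on the other strand.

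The 2 sets gave differences of opposite sign for 18 of the 40 members (45%, against 44% of all genes). The median over members was 0.01 within set A and 0.03 within set B. SLC25A1, SLC25A20, SLC25A38 and SLC25A43 kept their sign, as genes whose groups do not overlap must. Opposite signs with a size of at least 0.15 in both sets were found in SLC25A3, SLC25A33, SLC25A37 and SLC25A39, listed after the values had been seen. SLC25A3 had 0.16 in set A and -0.42 in set B, SLC25A33 -0.38 and 0.46. Set B has 1 library a group, so its differences carry no error of their own. With a term for the set, SLC25A38 was at 0.50 (SE 0.21) and SLC25A43 at -0.33 (SE 0.19), and 1 member, SLC25A38, had an unadjusted p under 0.05 (1 of 40, against 6.85% of all genes).

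**Figure D4:**
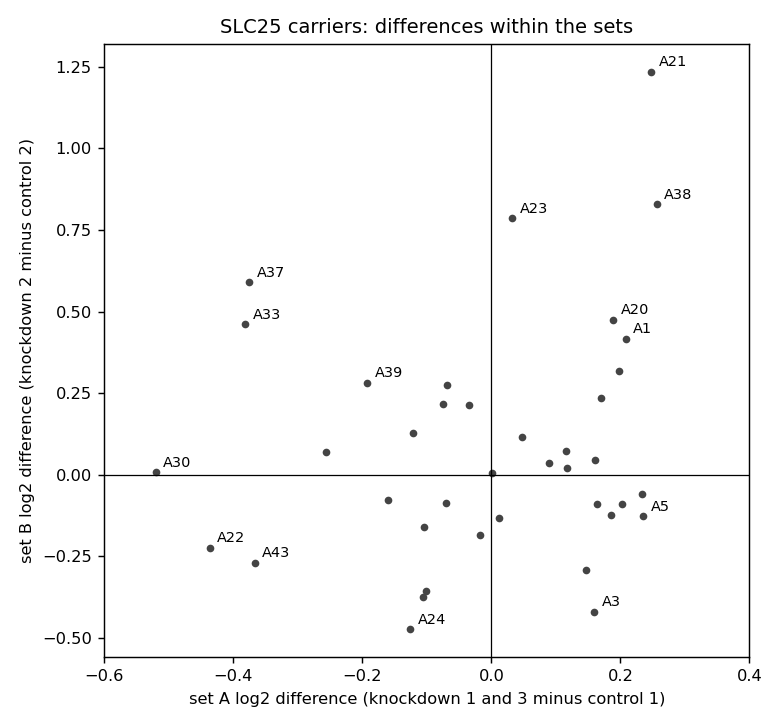
Log2 difference of the members (1 of the 40 is not drawn) within set A (horizontal axis) and set B (vertical axis), on log2(FPKM + 0.5), with some members labelled by their number. SLC25A21 and SLC25A38 lie at the upper right, SLC25A43 at the lower left, and SLC25A37 and SLC25A33 at the upper left, where the sets go opposite ways.

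Within the knockdown group the carriers were ordered by base composition. Transcript GC content of the members ran from 34.2% (SLC25A40) to 65.4% (SLC25A10). The deviation of a member from its mean over the 5 libraries had a Spearman's rho with GC content of 0.82 in knockdown 1 and -0.63 in knockdown 3, beside -0.06 and 0.09 in the controls and 0.04 in knockdown 2 (40 members, which share library, depth and scaling). Over all genes rho was 0.57 in knockdown 1 and -0.54 in knockdown 3, so the carriers are not alone in this. All 12 members under 45% GC were higher in knockdown 3 than in knockdown 1, with a median gap of 0.34 on the log2 scale, beside 83.4% of all genes in that range. Of the 15 members at 55% GC or above 13 were lower in knockdown 3 (median gap -0.22), beside 82.5% of all genes in that range, and the exceptions were SLC25A28 and SLC25A6. SLC25A22 and SLC25A10, whose GC-rich signatures are printed above, had the largest gaps, -0.98 and -0.91, and SLC25A40, the most AT-rich member, had 0.64. The printed stretch of SLC25A5 was GC-rich too (63.3%), but its transcript had 49.45% GC and its gap was 0.18. The part of base composition in the knockdown range of these genes was not tested.

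**Figure D5:**
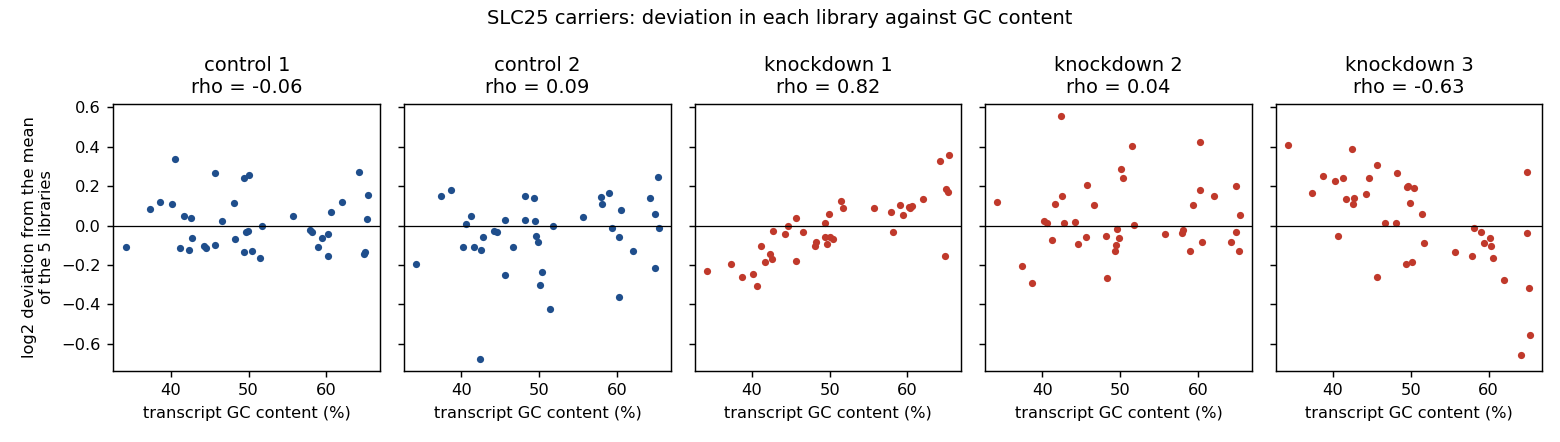
Deviation of the members (1 of the 40 is not drawn) from their mean over the 5 libraries (log2 scale) against the GC content of its transcripts in percent, 1 panel per library, with Spearman's rho over 40 members. Points climb to the right in knockdown 1 (0.82), fall to the right in knockdown 3 (-0.63) and show no slope in the other 3 libraries.

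The opposite slopes of knockdown 1 and 3 largely cancelled in the comparison of the groups, where the log2 difference had a rho of -0.08 with GC content. When GC content and transcript length were corrected by loess, library by library, 6 members had an unadjusted p under 0.05, which is 15% against 17.8% of all genes, and the standard errors of these 6 were smaller than before. These were SLC25A1 at 0.38 (SE 0.09), SLC25A43 at -0.32 (SE 0.08), SLC25A46 at -0.35 (SE 0.10), SLC25A38 at 0.45 (SE 0.14), SLC25A23 at 0.42 (SE 0.16) and SLC25A24 at -0.30 (SE 0.12). None of the 6 passed over all genes (smallest limma adjusted p = 0.202, for SLC25A1).

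Neighbouring genes of mitochondrial transport gave 0 calls as well. Of 13 genes of the machinery that imports carriers into the inner membrane 8 had an estimate above 0 and 5 below (median 0.03 on the log2 scale), and the 2 of smallest p were the outer membrane receptors TOMM22, at 31.3 and 43.0 against 50.4, 48.9 and 72.8 FPKM (0.61, SE 0.23), and TOMM20, at 54.3 and 54.2 against 58.5, 66.7 and 76.8 FPKM (0.30, SE 0.15). Both were above the controls in every knockdown library and highest in knockdown 3, and neither passed (limma adjusted p = 0.406 and 0.479). Groups were apart in 46.2% of these 13 genes, against 32.3% of all genes. Every knockdown library was higher in 4 (16.5% of all genes) and lower in 2 (15.7% of all genes). The 2 lower were TOMM40, at 91.4 and 86.2 against 84.1, 67.6 and 70.2 FPKM, and TIMM22, at 23.5 and 22.3 against 21.4, 19.8 and 20.0 FPKM. Of 19 other mitochondrial transport proteins 11 were above 0 and 8 below (median 0.09), led by SMDT1, a subunit of the calcium uniporter, at 9.56 and 11.0 against 12.3, 15.4 and 20.0 FPKM (0.58, SE 0.21, limma adjusted p = 0.402), and by ABCB8, an ABC transporter, at -0.45 (SE 0.21, limma adjusted p = 0.469). Of 28 enzymes that make or use carried substrates 27 were tested, 14 above 0 and 13 below (median 0.01). FECH, given above, had the smallest p there. The tested family members that carry other symbols overlapped between groups. MTCH1 and MTCH2, of the outer membrane, stood at 93.4 to 118.7 and 34.5 to 41.4 FPKM, and the uncoupling proteins UCP2 and UCP3 at 1.83 to 3.03 and 0.771 to 1.04 FPKM. UCP3 had the smallest p of these (-0.15, SE 0.16, limma adjusted p = 0.720) and MTCH1 the next (0.09, SE 0.15, limma adjusted p = 0.833), and UCP1 was not tested.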

How the data were processed

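A single table of FPKM values, deposited by the authors, gives each symbol a row and each library a column. The submitters' processing notes name HISAT2 (2.0.1), StringTie (2.0.6) and, without a role, the builds GRCh38 and mm9. For annotation and strand setting, nothing is given in the sources used here. Absolute depth is unknown, since FPKM carries no read totals; FPKM sums ran from 374215 to 420541 per library.

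Values were analysed as log2(FPKM + 0.5) for the 13380 genes averaging 0.5 FPKM or more, with limma 3.58.1 in R 4.3.3 (lmFit, eBayes with an intensity trend), no covariate, two-sided, with Benjamini-Hochberg adjustment and a threshold of 0.05. Differences of low genes are understated on this scale. An exact permutation test of 2 against 3 libraries cannot go below 0.1. Simulated data with known changes, and noise independent between genes, tested this step. GENCODE 29 (GRCh38) gave coordinates, and GC content and length as medians over basic transcripts, for 95.7% of tested genes, all members included.

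Members, roles, lists and tests were chosen with earlier results of these data known. Log2 differences with errors were given by rule for AHNAK, the 12 members of smallest p and 12 fixed members, and for the 2 genes of smallest p of each related list; others are described by level. The alternatives tried were pseudocounts, filters on low values, scalings, other variance settings, array weights, a set term, a replicate block, a correction for GC content and length, and each library left out. Combinations of that correction with the set term and the block were chosen after seeing the data. The values of 1 member and of 1 gene of the related lists are not reported here, and both stay in the counts.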

Additional observations from a re-analysis of the deposited data

How the results depend on the processing

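No SLC25 member was called in any of 21 alternative fits. AHNAK was called with array weights only (-1.53). Over named genes 438 fits gave the sign and call of the fit reported, 15 turned the sign and 1 gained a call. The cause of these changes was not tested, except that filters test fewer genes.

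Over all genes, calls numbered 1 without a trend, 169 with array weights (which weighted knockdown 2 at 3.34 and knockdown 3 at 0.281) and 1 with the replicate block and the GC content and length correction. Genes at an unadjusted p under 0.05 numbered 862 at a mean of at least 5 FPKM, 4360 with array weights, 916 under the set term and 991 under the replicate block. Rescaling to an equal FPKM sum gave 569 higher and 905 lower, beside 831 and 739 as reported. Members at that p numbered 1 with an equal sum, 9 with array weights, 1 under the set term and 6 after correcting GC content and length. Members above 0 numbered 14 of 26 at a mean of at least 5 FPKM. The members' median was 0.024 and 0.0058 at a mean of at least 1 and 5 FPKM, -0.0083 with an equal sum, 0.013 with array weights, -0.00032 under the replicate block, 0.011 after the GC content and length correction, 0.0057 with that correction and the set term, and -0.013 with that correction and the block.

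Leaving out each library in turn gave 0 to 4 calls over all genes, 611 to 2282 genes and 0 to 6 members at an unadjusted p under 0.05, 20 to 24 members above 0, and a members' median of -0.00032 to 0.079. The 4 calls came without control 1, and 0 members came without control 2 or knockdown 2, 6 without knockdown 1 or knockdown 3.

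Signs turned for SLC25A39 with an equal sum (-0.047) and quantile normalization (-0.020), and for SLC25A5 with quantile normalization (-0.023), array weights (-0.012), the corrected set term (-0.0013) and the corrected block (-0.018). SLC25A6 turned with the block (-0.050) and the corrected block (-0.042). Replicate 3 has no control, so the block gives the same estimates as leaving out knockdown 3, and a turn in both is 1 result counted again. With each library left out in turn SLC25A39 ranged from -0.12 to 0.15, SLC25A6 from -0.050 to 0.17 and SLC25A3 from -0.22 to 0.049. SLC25A39 turned without control 2, knockdown 1 or knockdown 2, SLC25A6 without control 1 or knockdown 3, and SLC25A3 without control 2 or knockdown 2.

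Deviations of same-numbered libraries correlated at -0.06 and -0.50. With 2 controls, the deviations of control 1 are those of control 2 with the sign turned. These correlations therefore cannot decide whether replicate numbers pair the libraries. The replicate block changed no call of a member.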

Other observations

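The rows left out by the rule were at low levels apart from SLC25A25-AS1, which had 7.37 and 3.38 FPKM (control 1, 2) and 6.28, 10.4 and 4.96 FPKM (knockdown 1, 2, 3). SLC25A25, a calcium-regulated ATP-Mg/phosphate carrier that shares 13.5% of its exon bases with that antisense gene, was steady at 6.06 to 7.15 FPKM. Of the 8 symbols under the limit 4 had groups apart, SLC25A18 and SLC25A53 higher and SLC25A47 and SLC25A48 lower in every knockdown library. The share of all genes this low with groups apart was not computed, so the count has no background. SLC25A47 and SLC25A48 reached at most 0.0563 and 0.0181 FPKM. SLC25A18 had 0.391 FPKM in both controls and 0.392 FPKM in knockdown 1. None of the 8 entered the reported test. SLC25A53, picked out after its values had been seen, had 0.180 and 0.251 FPKM (control 1, 2) and 0.521, 0.486 and 0.402 FPKM (knockdown 1, 2, 3). The 2 pseudogene rows, SLC25A51P1 and SLC25A3P1, were listed at 0 in every library.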
